A study of Homo sapiens with 12 samples.

Results

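The aminoacyl-tRNA synthetases are the enzymes that join each amino acid to its transfer RNA. The members were 36 named synthetase genes of the 19128 gene symbols in the deposited gene table of a study of necroptosis in HT-29, an established line from a human colorectal adenocarcinoma. They were chosen by symbol. Of these, 20 encode cytosolic enzymes and 16, with symbols ending in 2, encode mitochondrial enzymes. GARS and KARS, counted as cytosolic, serve both compartments. Of the 36 members, 35 reached a mean of at least 1 FPKM (fragments scaled to transcript length and to the mapped fragments of the library) in at least 1 group and entered the tests. VARS2, the mitochondrial valyl enzyme, lay at 0.284 to 0.413 FPKM in the 8 libraries and was not tested.

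The 8 libraries fell into 4 groups of 2, all of HT-29 cells that carried an shRNA. The groups were shMLKL cells given TBZ for 5 h, shMLKL cells given DMSO, shGFP cells given TBZ for 5 h, and shGFP cells given DMSO. The shMLKL line is depleted of MLKL, the pseudokinase that carries out necroptosis, and the shGFP line is its control. TBZ combined TNFα at 20 ng/mL, the IAP antagonist BV6 at 2 µM and the caspase inhibitor zVAD-fmk at 30 µM. An earlier experiment had 1 library in each of 4 groups: shMLKL cells after 12 h of TBZ, shMLKL cells in DMSO, parental HT-29 cells after 4 h of TBZ, and parental cells in DMSO. The labels name 1 line per shRNA, so knockdown of MLKL and any other difference between the lines cannot be told apart. No label says that the replicates came from separate cultures, so p-values measure the spread between these libraries, which may be technical.

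The cytosolic synthetases charge tRNAs for the ribosomes of the cytosol, and the mitochondrial ones are imported to serve the few proteins made from mitochondrial DNA. Uncharged tRNA activates the kinase GCN2, which phosphorylates eIF2 and favours translation of the transcription factor ATF4. ATF4 binds C/EBP-ATF response elements and raises genes of amino acid synthesis, amino acid transport and many cytosolic synthetases. WARS, the tryptophanyl enzyme, is in addition a well-known interferon-γ-induced gene.

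To show where such an element lies in the genes followed below, the core TGATGNAA was searched on both strands of RefSeq promoter windows (250 bases before to 50 after a start, GRCh38.p14). Windows were matched for 30 of the 36 members. The core was present in 7 of 16 cytosolic members with a window, in 1 of 14 mitochondrial members, and in 3.62% of all 35116 windows. The 7 cytosolic members were among the 10 with a window that are widely reported as ATF4 targets, and 0 of the 6 other cytosolic members held it. The matches are printed on the sense strand of each gene, with the core or its reverse complement in capitals.
AARS, chr16:70289675-70289704, minus strand, 187 bases upstream: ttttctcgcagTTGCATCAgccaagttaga
CARS, chr11:3057407-3057436, minus strand, 2 bases upstream: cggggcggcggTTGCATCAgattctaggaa
GARS, chr7:30594834-30594863, plus strand, 33 bases upstream: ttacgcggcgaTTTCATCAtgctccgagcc
IARS, chr9:92293692-92293721, minus strand, 13 bases upstream: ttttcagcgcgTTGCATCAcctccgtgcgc
MARS, chr12:57488053-57488082, plus strand, 4 bases upstream: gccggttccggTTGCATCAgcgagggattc
NARS, chr18:57621804-57621833, minus strand, 14 bases past the start: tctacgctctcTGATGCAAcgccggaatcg
TARS, chr5:33440956-33440985, plus strand, 2 bases past the start: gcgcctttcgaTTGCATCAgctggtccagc
YARS2, chr12:32756076-32756105, minus strand, 197 bases upstream: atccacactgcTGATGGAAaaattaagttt
In 6 of the 7 cytosolic matches the central letters read TTGCATCA or its reverse complement. GARS differed with TTTCATCA, and the mitochondrial YARS2 held TGATGGAA.

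For WARS, a window at its downstream start was searched for 2 interferon motifs, which were added after the values were seen. They are the core of the interferon-stimulated response element and the gamma-activated site TTCNNNGAA, searched on both strands and in capitals below in that order.
WARS, chr14:100375383-100375412, minus strand, 55 bases upstream: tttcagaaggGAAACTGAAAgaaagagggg
WARS, chr14:100375471-100375499, minus strand, 142 bases upstream: gctcaagtgtTTCTGAGAAtctgggtgat
The first motif was held by 1 of 16 cytosolic members, 1 of 14 mitochondrial members (EARS2) and 3.57% of all windows. TTCNNNGAA was held by 3 of 16 cytosolic members, 2 of 14 mitochondrial members and 7.66% of all windows. All such matches are letters in a window and were not tested for binding.

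MLKL stood at 0.651 and 0.395 FPKM in shMLKL TBZ libraries, 0.606 and 0.545 in shMLKL DMSO, 1.98 and 2.03 in shGFP TBZ, and 3.95 and 3.89 in shGFP DMSO. Relative depth lay between 82.9 and 100.0% of the deepest library, and absolute depth is unknown. The libraries held 9606 to 10047 genes at 1 FPKM or more, with the shMLKL libraries at the low end, and replicates correlated across genes at 0.989 to 0.992. Of 11 colon epithelial markers, 6 were at 1 FPKM or more in every library, and 2, CDX1 and CDX2, were under it in every library. Their summed levels were 870.3 to 875.1 FPKM in shMLKL TBZ and 1053 to 2302 in shMLKL DMSO. In shGFP cells the sums were 810.9 to 817.4 with TBZ and 812.3 to 812.9 with DMSO. The keratins KRT8 and KRT18 were listed at 0 in 7 of the 8 libraries, and a listed 0 can be a failed estimate. Fibroblast and endothelial markers stayed under 1 FPKM (8 of 8), and of 8 leukocyte markers CD14, CD68 and LYZ gave the signal, with summed levels of 604.3 to 644.3 FPKM in shMLKL TBZ, 612.2 to 663.2 in shMLKL DMSO, 526.6 to 529.2 in shGFP TBZ and 605.5 to 613.1 in shGFP DMSO. Their part in the results below was not tested. In such bulk samples, fewer cells of a type and less RNA per cell cannot be told apart.

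In level per transcript length, the cytosolic enzymes stood far above the mitochondrial ones. TARS (threonine), GARS (glycine) and SARS (serine) led, with means over the 8 libraries of 232, 214 and 196 FPKM. IARS2 (isoleucine) was the highest mitochondrial member at 32.4 FPKM. Over 16 amino acids with both enzymes, the cytosolic level was 2.28 to 133.3 times the mitochondrial one, with a median ratio of 15.7. The histidine pair HARS and HARS2 lay closest and the proline pair EPRS and PARS2 farthest apart. VARS (valine) stood on 7 lines of the table and VARS2 on 6, which belong to copies of their locus on chromosome 6. The line used here averaged 2.19 FPKM for VARS, against 13.4 FPKM for the sum of its lines, so its level is understated.

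After TBZ, the cytosolic synthetases moved in both directions and by modest amounts. In shMLKL cells 4 of 20 rose (RARS, WARS, CARS and EPRS) and 2 fell (AARS and SARS). In shGFP cells 5 rose (WARS, CARS, RARS, GARS and EPRS) and 4 fell (AARS, VARS, FARSB and IARS). Calls are from limma on log2(FPKM + 1), at a Benjamini-Hochberg adjusted p under 0.05 over 10364 genes. By that rule 20.0% of all genes rose and 17.6% fell in shMLKL cells, and 19.1% rose and 37.3% fell in shGFP cells. The share of cytosolic members that rose was thus near the background in both lines, at 20.0% in shMLKL and 25.0% in shGFP cells. The share that fell was 10.0% in shMLKL and 20.0% in shGFP cells, beside 17.6% and 37.3%. In a class of 20 such gaps rest on few members, and they depended on the scaling. The median log2 change of the cytosolic members was 0.01 in shMLKL cells (−0.004 over all genes) and −0.01 in shGFP cells (−0.121 over all genes). The balance of the cytosolic calls depended on the scaling. In shGFP cells it was 8 higher and 1 lower with library medians set equal (22.6% and 28.2% of all genes), and 3 higher and 6 lower after quantile normalization (21.8% and 32.7%). In shMLKL cells it was 3 higher and 4 lower with equal medians (17.5% and 20.7%), and 3 higher and 3 lower after quantile normalization (17.5% and 19.7%).

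**Figure D1:**
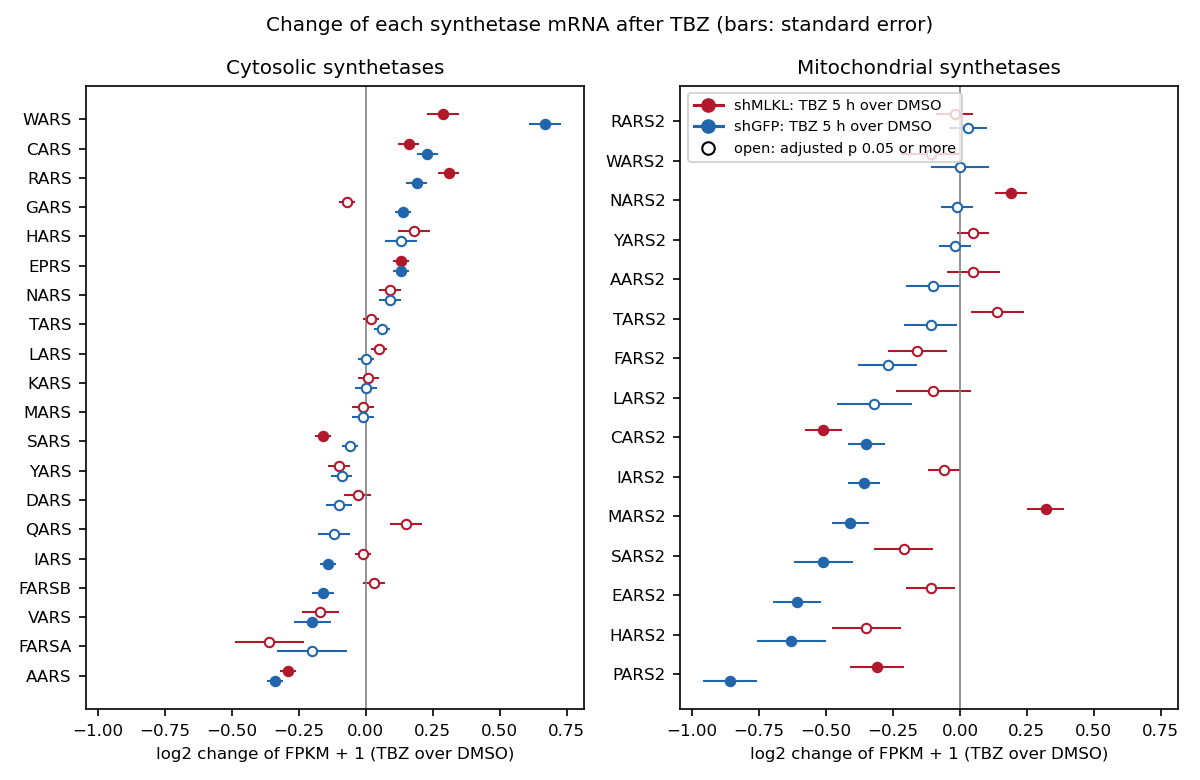
Log2 change after 5 h of TBZ against DMSO, on log2(FPKM + 1), for each synthetase tested, in shMLKL and shGFP cells, with bars of 1 SE from the limma fit (2 libraries a group). Cytosolic members spread on both sides of 0 in both lines, while in shGFP cells the called mitochondrial members lie below 0.

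WARS (hg19 chr14:100800125-100842680, minus strand) showed the largest rise among the cytosolic members of shGFP cells. It had 196.9 and 185.4 FPKM in shMLKL TBZ libraries against 156.6 and 155.5 FPKM in shMLKL DMSO. In shGFP cells WARS had 135.7 and 133.6 FPKM with TBZ against 79.6 and 89.5 FPKM with DMSO. The groups did not overlap in either line. WARS rose by a log2 change of 0.29 (SE 0.06, limma adjusted p = 0.00536) in shMLKL cells, a ratio of means of 1.23. In shGFP cells the change was 0.67 (SE 0.06, limma adjusted p = 5.13e-05), a ratio of 1.59. The effect in shMLKL cells was smaller than that in shGFP cells by −0.38 (SE 0.08, limma adjusted p = 0.0159). That difference missed the threshold without shGFP TBZ replicate 1, without shMLKL TBZ replicate 2 and without a filter on low values.

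RARS, the arginyl enzyme and part of the multi-tRNA synthetase complex, is not on the list of reported ATF4 targets. It had 60.8 and 59.6 FPKM in shMLKL TBZ against 49.2 and 47.7 FPKM in shMLKL DMSO, and 62.3 and 62.7 FPKM in shGFP TBZ against 53.5 and 55.6 FPKM in shGFP DMSO. Both TBZ libraries lay above both DMSO libraries in each line. It rose by 0.31 (SE 0.04, limma adjusted p = 0.000439) in shMLKL cells and by 0.19 (SE 0.04, limma adjusted p = 0.0026) in shGFP cells. CARS, the cysteinyl enzyme with the element 2 bases before its start, rose as well. Its levels were 62.5 and 58.8 FPKM in shMLKL TBZ against 53.3 and 55.1 FPKM in shMLKL DMSO, and 68.2 and 67.8 FPKM in shGFP TBZ against 56.9 and 58.4 FPKM in shGFP DMSO. The changes were 0.16 (SE 0.04, limma adjusted p = 0.0161) and 0.23 (SE 0.04, limma adjusted p = 0.00177) in the 2 lines, with no overlap of groups. The call in shMLKL cells was lost without replicate 1 of either shMLKL group.

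EPRS joins glutamate and proline to their tRNAs in 1 protein. It measured 131.7 and 135.4 FPKM in shMLKL TBZ against 124.6 and 120.1 FPKM in shMLKL DMSO, and 131.1 and 127.5 FPKM in shGFP TBZ against 116.8 and 119.5 FPKM in shGFP DMSO. The rise was 0.13 (SE 0.03) in both lines, with limma adjusted p of 0.0251 in shMLKL and 0.0152 in shGFP cells. Groups did not overlap, but the calls were lost when replicate 2 of either shMLKL group, or replicate 1 of either shGFP group, was left out. Both were also lost without the variance trend and under quantile normalization, where the EPRS change in shGFP cells was 0.04 (limma adjusted p = 0.447), and the call in shMLKL cells with equal medians too.

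GARS, the glycyl enzyme, behaved differently in the lines. It had 195.8 and 194.0 FPKM in shMLKL TBZ against 203.4 and 205.7 FPKM in shMLKL DMSO, and was not called there. In shGFP cells it had 240.7 and 239.2 FPKM with TBZ against 213.1 and 223.0 FPKM with DMSO, a rise of 0.14 (SE 0.03, limma adjusted p = 0.00827). The effects differed by −0.21 (shMLKL minus shGFP, SE 0.05, limma adjusted p = 0.0184), and this call was lost without 4 of the 8 libraries in turn, without the variance trend and under quantile normalization (−0.07). Under quantile normalization the GARS change in shGFP cells was 0.01 (limma adjusted p = 0.763), so that call was lost as well.

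AARS (hg19 chr16:70286297-70323412, minus strand), the alanyl enzyme, is a reported ATF4 target with the core in its window. It fell in both lines, and a part of ATF4 in the changes of these genes was not tested. Its levels were 66.7 and 66.3 FPKM in shMLKL TBZ against 81.4 and 82.1 FPKM in shMLKL DMSO, and 57.4 and 55.0 FPKM in shGFP TBZ against 71.1 and 71.8 FPKM in shGFP DMSO. Every TBZ library lay below every DMSO library of its line. The change was −0.29 (SE 0.03, limma adjusted p = 0.000388) in shMLKL and −0.34 (SE 0.03, limma adjusted p = 0.000107) in shGFP cells. SARS, the seryl enzyme, had 200.6 and 202.7 FPKM in shMLKL TBZ against 224.2 and 225.7 FPKM in shMLKL DMSO, a fall of −0.16 (SE 0.03, limma adjusted p = 0.00736). In shGFP cells SARS stood at 175.1 and 176.0 FPKM with TBZ against 179.2 and 188.0 FPKM with DMSO and was not called.

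The other cytosolic calls of shGFP cells were small. FARSB, the β subunit of the phenylalanyl enzyme, had 34.4 and 34.3 FPKM in shMLKL TBZ against 32.8 and 34.5 in shMLKL DMSO, and 33.0 and 34.0 FPKM in shGFP TBZ against 37.4 and 37.6 in shGFP DMSO. It fell by 0.16 (log2 change −0.16, SE 0.04, limma adjusted p = 0.00977) in shGFP cells and was not called in shMLKL cells, and its effects differed by 0.19 (SE 0.05, limma adjusted p = 0.0463). The fall was not called with library medians set equal or without shGFP TBZ replicate 1, and the difference was lost under 12 of 17 settings, 7 of the 8 left-out libraries among them. VARS had 1.77 and 1.81 FPKM in shMLKL TBZ against 2.06 and 2.21 in shMLKL DMSO, and 2.18 and 2.16 FPKM in shGFP TBZ against 2.51 and 2.79 in shGFP DMSO. Its change of −0.20 in shGFP cells (SE 0.07, limma adjusted p = 0.0475) was lost under 12 of the 16 settings in which VARS was tested, each left-out library among them. On the sum of its lines it was −0.26 (limma adjusted p = 0.0047). IARS, the isoleucyl enzyme, fell by 0.14 on the log2 scale (−0.14, SE 0.03, limma adjusted p = 0.00958), which was lost with library medians set equal or without shGFP DMSO replicate 2. The remaining cytosolic members DARS, FARSA, HARS, KARS, LARS, MARS, NARS, QARS, TARS and YARS were not called after TBZ in either line.

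Grouping by reported control, 3 of the 12 reported ATF4 targets rose and 2 fell in shMLKL cells, and 4 rose and 2 fell in shGFP cells. The background for each count in this paragraph is 20.0% higher and 17.6% lower of all genes in shMLKL cells. In shGFP cells it is 19.1% and 37.3%. Of the 8 other cytosolic members, 1 rose in shMLKL cells, and 1 rose and 2 fell in shGFP cells. Among the 8 members of the multi-tRNA synthetase complex (DARS, EPRS, IARS, KARS, LARS, MARS, QARS and RARS), 2 rose in shMLKL cells, and 2 rose and 1 fell in shGFP cells. Of the 3 scaffold proteins of that complex, AIMP2 was under the level filter. EEF1E1 fell by −0.22 in shMLKL (limma adjusted p = 0.015) and −0.46 in shGFP cells (limma adjusted p = 0.000246). AIMP1 fell in shGFP cells by −0.13, with 0.02 in shMLKL cells. By catalytic fold, 4 of the 17 class I members tested rose and 1 fell in shMLKL cells, against 3 and 6 in shGFP cells. For the 17 class II members the counts were 1 and 3 in shMLKL and 1 and 5 in shGFP cells. Both counts of class II falls include PARS2, which entered the tests through its level in shGFP DMSO alone.

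After TBZ, mitochondrial synthetases were called lower in shGFP cells and in both directions in shMLKL cells. In shMLKL cells 2 of the 15 tested rose (MARS2 and NARS2) and 2 fell (CARS2 and PARS2), against backgrounds of 20.0% and 17.6%. In shGFP cells 0 rose and 7 fell (PARS2, HARS2, EARS2, SARS2, MARS2, IARS2 and CARS2), against 19.1% and 37.3%. The 7 that fell are 46.7% of those tested, and in shMLKL cells 13.3% rose and 13.3% fell. In a class of 15 the gaps between these shares and the background rest on few members. PARS2 entered the tests through its level in shGFP DMSO alone, and without it 6 of 14 fell in shGFP cells (42.9%), and 2 rose and 1 fell in shMLKL cells. Their median log2 change was −0.10 in shMLKL cells, beside −0.004 for all genes, and −0.32 in shGFP cells, beside −0.121. All 7 falls in shGFP cells were called under quantile normalization and with equal library medians as well. The size of the fall depended on the scaling. The mitochondrial median in shGFP cells was −0.17 after quantile normalization (−0.075 over all genes) and −0.26 with equal medians (−0.057 over all genes). For 12 of the 15, shGFP DMSO had the highest mean of the 4 groups, as it did for 48.5% of all genes tested. The 12 include PARS2, whose highest group was set by the filter.

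**Figure D2:**
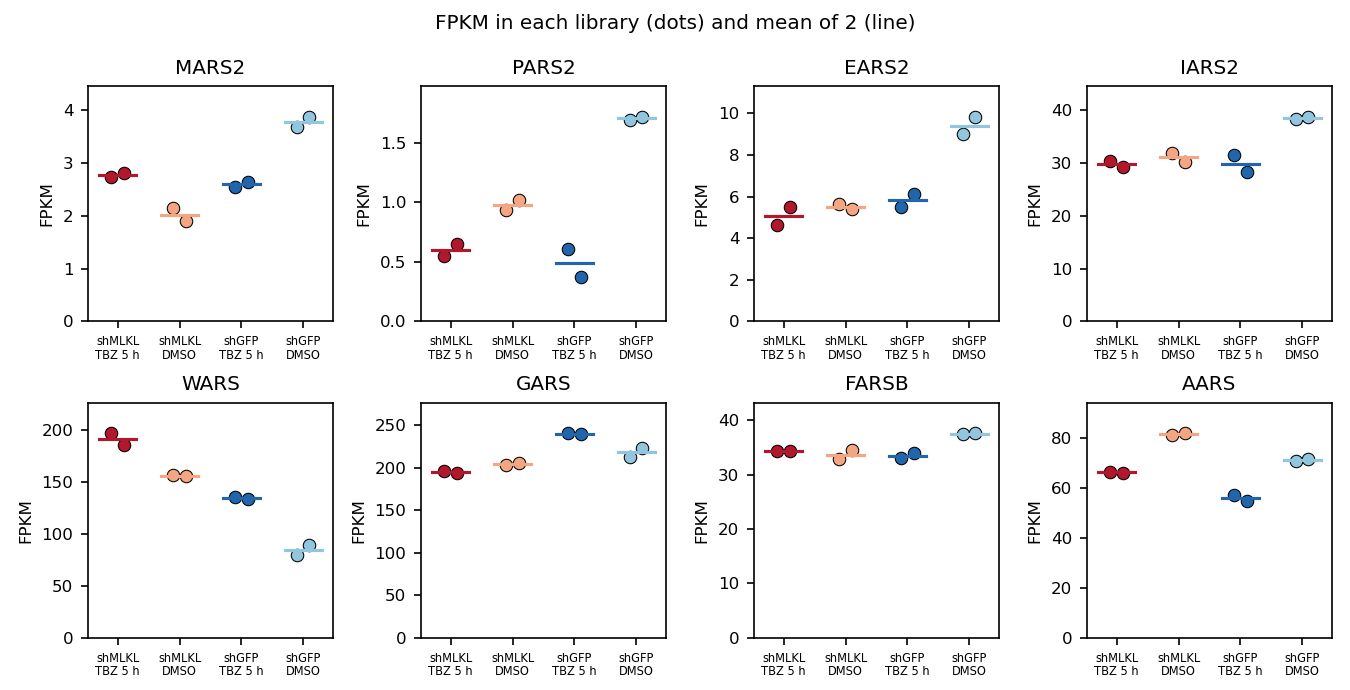
FPKM of 8 synthetases in each of the 8 libraries (dots) with the mean of each group (line), on axes from 0: the 7 called for a difference of TBZ effects, and AARS. The shGFP DMSO libraries stand highest for MARS2, PARS2, EARS2 and IARS2, while WARS is higher and AARS lower with TBZ than with DMSO in both lines.

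PARS2 (hg19 chr1:55222571-55230226, minus strand), the mitochondrial prolyl enzyme, is low in these cells. It had 0.546 and 0.649 FPKM in shMLKL TBZ against 0.938 and 1.02 FPKM in shMLKL DMSO, and 0.612 and 0.375 FPKM in shGFP TBZ against 1.69 and 1.72 FPKM in shGFP DMSO. Groups did not overlap in either line. PARS2 passed the 1 FPKM filter through shGFP DMSO alone, so a difference from that group was in part set by the filter. Fitted without the filter, its log2 change was −0.31 (limma adjusted p = 0.0832) in shMLKL and −0.86 (limma adjusted p = 0.00277) in shGFP cells, and the ratio of means was 0.61 in shMLKL and 0.289 in shGFP cells. On the log2(FPKM + 1) scale the change of such a low gene is understated. With the filter the fall in shMLKL cells was called (limma adjusted p = 0.0454), and that call was lost under 10 of the 16 settings in which PARS2 was tested, 6 of the 8 left-out libraries among them. The difference between the effects was 0.55 (SE 0.14, limma adjusted p = 0.0315), lost under 12 of them, the fit without a filter included.

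EARS2, the mitochondrial glutamyl enzyme, also makes the precursor of mitochondrial glutaminyl-tRNA. It measured 4.64 and 5.48 FPKM in shMLKL TBZ against 5.64 and 5.39 FPKM in shMLKL DMSO, where the ranges overlapped and it was not called. In shGFP cells it had 5.51 and 6.13 FPKM with TBZ against 8.99 and 9.84 FPKM with DMSO, a fall of −0.61 (SE 0.09, limma adjusted p = 0.000739). The effects differed by 0.50 (SE 0.12, limma adjusted p = 0.0256), lost under 8 of 17 settings. HARS2, the mitochondrial histidyl enzyme, had 7.28 and 9.23 FPKM in shMLKL TBZ against 12.1 and 9.5 FPKM in shMLKL DMSO, which was not called. In shGFP cells HARS2 had 8.78 and 8.71 FPKM with TBZ against 13.2 and 15.0 FPKM with DMSO, a fall of −0.63 (SE 0.13, limma adjusted p = 0.00479). HARS2 and HARS overlap by 302 bases on opposite strands. The kit keeps strand, but whether the counting used it is not stated, so reads in the overlap are uncertain.

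SARS2, the mitochondrial seryl enzyme, had 3.1 and 3.94 FPKM in shMLKL TBZ against 3.98 and 4.42 FPKM in shMLKL DMSO, and was not called. In shGFP cells the levels were 3.43 and 3.73 FPKM with TBZ against 5.9 and 5.15 FPKM with DMSO, a fall of −0.51 (SE 0.11, limma adjusted p = 0.00515). It overlaps MRPS12, a gene of the mitochondrial ribosome, by 189 bases. IARS2 had 30.4 and 29.3 FPKM in shMLKL TBZ against 31.9 and 30.3 FPKM in shMLKL DMSO, and 31.5 and 28.3 FPKM in shGFP TBZ against 38.4 and 38.8 FPKM in shGFP DMSO. It fell by −0.36 (SE 0.06, limma adjusted p = 0.00119) in shGFP cells, and the effects differed by 0.30 (SE 0.08, limma adjusted p = 0.0332), a call lost under 10 of 17 settings.

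CARS2, the mitochondrial cysteinyl enzyme, fell in both lines. It had 4.35 and 4.19 FPKM in shMLKL TBZ against 6.62 and 6.36 FPKM in shMLKL DMSO, and 8.86 and 7.83 FPKM in shGFP TBZ against 11.3 and 10.5 FPKM in shGFP DMSO. No group overlapped another. The change was −0.51 (SE 0.07, limma adjusted p = 0.00111) in shMLKL and −0.35 (SE 0.07, limma adjusted p = 0.00392) in shGFP cells, and these effects were not called different. Its cytosolic partner CARS rose in the same libraries.

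MARS2 (hg19 chr2:198570028-198573114, plus strand), the mitochondrial methionyl enzyme, moved in opposite directions in the 2 lines. It had 2.73 and 2.8 FPKM in shMLKL TBZ against 2.15 and 1.89 FPKM in shMLKL DMSO, a rise of 0.32 (SE 0.07, limma adjusted p = 0.011). In shGFP cells it had 2.54 and 2.64 FPKM with TBZ against 3.68 and 3.87 FPKM with DMSO, a fall of −0.41 (SE 0.07, limma adjusted p = 0.00223). The TBZ levels of the lines were thus close, and the DMSO levels far apart. The effects differed by 0.73 (SE 0.10, limma adjusted p = 0.00304), the largest called difference among the members, and it was called under each of the 16 settings in which MARS2 was tested. The rise in shMLKL cells alone was not called without replicate 2 of either shMLKL group. NARS2, the mitochondrial asparaginyl enzyme, had 9.88 and 9.14 FPKM in shMLKL TBZ against 7.97 and 8.4 FPKM in shMLKL DMSO, a rise of 0.19 (SE 0.06, limma adjusted p = 0.0448) that was lost under 11 of 17 settings. In shGFP cells it had 9.56 and 10.5 FPKM with TBZ against 9.95 and 10.2 FPKM with DMSO, which overlapped. AARS2, FARS2, LARS2, RARS2, TARS2, WARS2 and YARS2 were not called after TBZ in either line.

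For the TBZ effect in shMLKL cells minus that in shGFP cells, 4 of 15 mitochondrial members were called higher (MARS2, PARS2, EARS2 and IARS2) and 0 lower, and of 20 cytosolic members 1 was higher (FARSB) and 2 lower (GARS and WARS). Over all genes 14.6% were called higher and 7.66% lower. The median difference was 0.22 for the mitochondrial members, 0.01 for the cytosolic ones and 0.103 for all genes. PARS2 aside, 3 of 14 mitochondrial members were higher. Leaving out 1 library at a time gave a mitochondrial count of 1 to 3 higher, beside 7.3 to 9.8% of all genes. With library medians set equal it was 1 of 15, beside 6.7% of all genes. Both effects come from the same fit, and each has its own DMSO libraries.

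Set side by side, the 2 enzymes of an amino acid differed in how they moved. The change of the mitochondrial enzyme was below that of its cytosolic partner in 9 of 15 pairs in shMLKL cells and in 13 of 15 in shGFP cells. EPRS is the cytosolic partner in both the glutamate and the proline pair, so the pairs are not all separate. PARS2, in the proline pair, passed the filter through shGFP DMSO alone, and that pair is in both counts. Of the other 14 pairs in shGFP cells, the gap was largest at histidine, with −0.63 for HARS2 and 0.13 for HARS. In shMLKL cells the largest gap was at cysteine, with −0.51 for CARS2 and 0.16 for CARS. The alanine pair went the other way in both lines, since AARS fell and AARS2 was not called.

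Summed over members, the cytosolic class changed little with TBZ, and the mitochondrial class had its highest level in shGFP DMSO. The mitochondrial sum was 97.37 and 98.36 FPKM in shMLKL TBZ against 106.8 and 101.0 FPKM in shMLKL DMSO, a change of −5.81%. In shGFP cells it was 109.0 and 106.0 FPKM with TBZ against 133.8 and 134.7 FPKM with DMSO, a change of −19.9%. The 2 shGFP DMSO libraries stood above the other 6. The cytosolic sum was 1853 and 1844 FPKM in shMLKL TBZ against 1820 and 1827 FPKM in shMLKL DMSO (1.37%), and 1722 and 1704 FPKM in shGFP TBZ against 1618 and 1676 FPKM in shGFP DMSO (4.01%). Without WARS the cytosolic change was −0.6% in shMLKL and 1.02% in shGFP cells. No test was made of these sums.

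**Figure D3:**
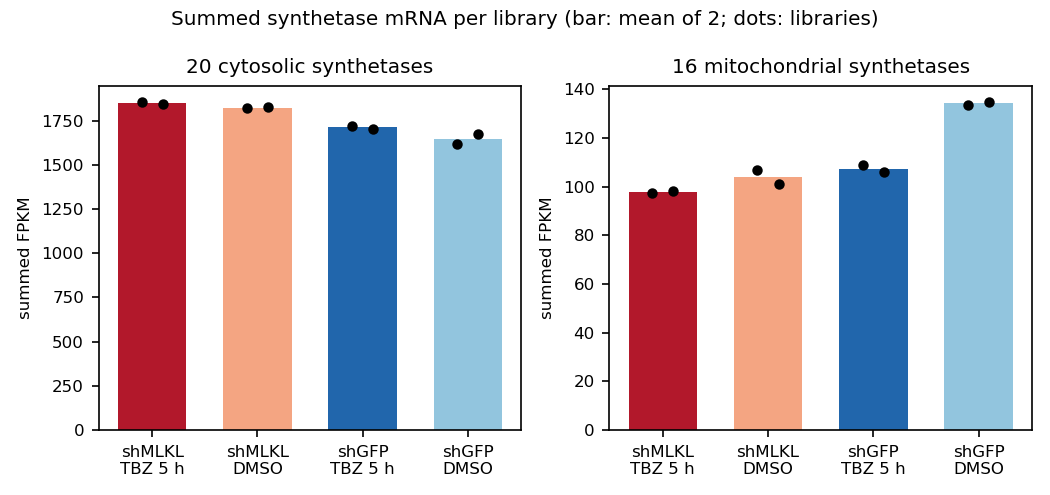
Summed FPKM of the 20 cytosolic and of the 16 mitochondrial synthetases in each library (dots) and the mean of each group (bars from 0). The mitochondrial sum is 133.8 and 134.7 FPKM in shGFP DMSO and between 97.37 and 109.0 FPKM in the other 6 libraries.

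The lines differed in their synthetases without TBZ. Under DMSO, 7 cytosolic members were higher in shMLKL than in shGFP cells and 8 lower, and 0 mitochondrial members were higher and 11 of 15 lower. PARS2, among the 11, passed the filter through shGFP DMSO alone, and without it 10 of 14 were lower. Over all genes 18.3% were higher and 44.8% lower, with a median of −0.162, beside 0.04 for the cytosolic and −0.30 for the mitochondrial members. With library medians set equal the cytosolic split became 11 higher and 3 lower, and the mitochondrial one 0 and 5, beside 30.1% higher and 26.6% lower of all genes. After quantile normalization it was 7 and 6 for cytosolic and 0 and 4 for mitochondrial members, beside 26.9% and 29.8%. Without shGFP DMSO replicate 1 the mitochondrial count was 7 lower, and the cytosolic count was 5 lower without shGFP DMSO replicate 2 or either shMLKL DMSO library. Under TBZ, 7 cytosolic members were higher and 6 lower, and 0 mitochondrial members were higher and 3 lower, against 20.7% and 31.0% of all genes. With equal medians these became 10 and 4, and 0 and 3, beside 27.3% and 22.7%. The DMSO contrast shares its libraries with the TBZ contrasts within each line, so the high shGFP DMSO values of the mitochondrial members enter both.

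By reported control, the 12 reported ATF4 targets had 7 higher and 1 lower under DMSO and 7 higher and 2 lower under TBZ. Of the 8 other cytosolic members 0 were higher and 7 lower under DMSO, and 0 higher and 4 lower under TBZ. Over all genes 18.3% were higher and 44.8% lower under DMSO, and 20.7% and 31.0% under TBZ. This split depended on the scaling. With library medians set equal, FARSA, FARSB, RARS and VARS, and GARS among the reported targets, were not called lower under DMSO. The 3 cytosolic members still lower there were DARS, KARS and QARS, beside 26.6% of all genes. WARS differed most among cytosolic members, with 0.88 (SE 0.06, limma adjusted p = 1.39e-05) under DMSO, a ratio of 1.85, and 0.50 (SE 0.06, limma adjusted p = 0.000289) under TBZ, a ratio of 1.42. Next under DMSO came TARS at 0.37, NARS at 0.30 and SARS at 0.29. On the low side stood QARS (glutamine) at −0.45, FARSA (phenylalanine, α subunit) at −0.42, DARS (aspartate) at −0.39 and KARS (lysine) at −0.37. DARS and KARS, which were not called after TBZ, had 24.5 and 22.8 FPKM and 57.3 and 56.6 FPKM in shMLKL TBZ against 30.0 and 29.3 FPKM and 73.1 and 73.9 FPKM in shGFP TBZ. FARSA had 3.7 and 4.01 FPKM in shMLKL TBZ against 7.26 and 5.4 FPKM in shGFP TBZ, a difference of −0.58 (SE 0.13, limma adjusted p = 0.00642). Its call under DMSO was lost under 6 of 17 settings, namely equal medians, quantile normalization, no filter, and without either shGFP DMSO library or shMLKL DMSO replicate 2. The DMSO levels of FARSA were 5.72 and 4.76 FPKM in shMLKL against 7.49 and 7.21 FPKM in shGFP cells.

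Among mitochondrial members under DMSO, EARS2 differed by −0.68 (SE 0.09, limma adjusted p = 0.000379), CARS2 by −0.67 (SE 0.07, limma adjusted p = 0.000143) and MARS2 by −0.66 (SE 0.07, limma adjusted p = 0.000183). Under TBZ the called members were CARS2 at −0.82 (SE 0.07, limma adjusted p = 7.75e-05), FARS2 at −0.42 (SE 0.11, limma adjusted p = 0.0182) and RARS2 at −0.31 (SE 0.07, limma adjusted p = 0.00577). FARS2, the mitochondrial phenylalanyl enzyme, had 1.9 and 1.69 FPKM in shMLKL TBZ against 2.57 and 2.91 FPKM in shGFP TBZ, and 2.49 and 1.79 FPKM in shMLKL DMSO against 3.41 and 3.63 FPKM in shGFP DMSO. The 2 lines did not overlap for FARS2 under either condition. Its call under TBZ was lost without shMLKL TBZ replicate 2, without shGFP TBZ replicate 2 and without a filter, and its call under DMSO under quantile normalization.

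**Figure D4:**
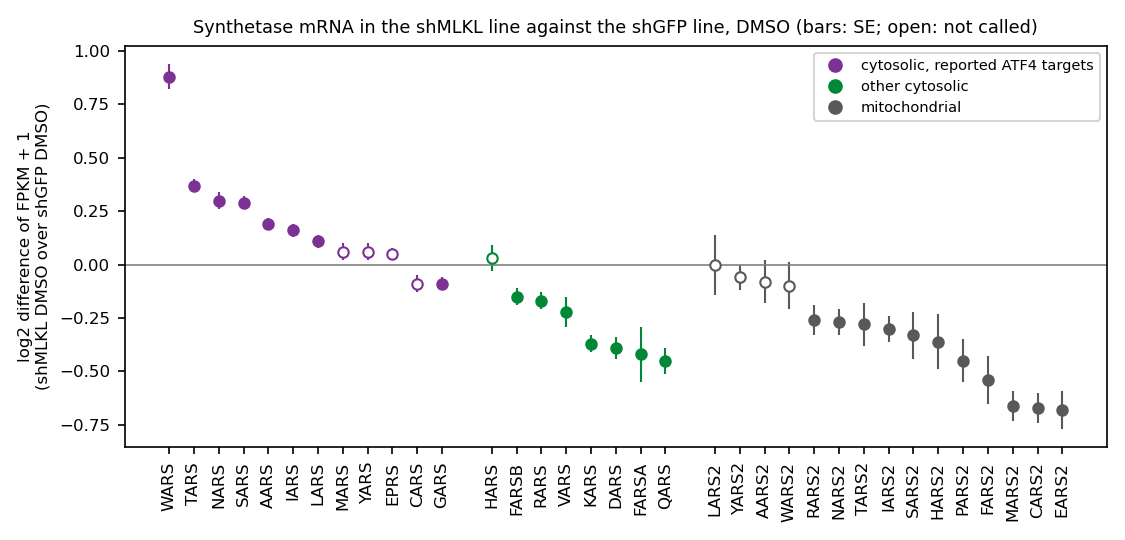
Difference between shMLKL and shGFP cells on log2(FPKM + 1) under DMSO for each synthetase tested, with bars of 1 SE from the limma fit (2 libraries a group) and open points for members not called. WARS stands highest at 0.88, and EARS2, CARS2 and MARS2 lie lowest at −0.68, −0.67 and −0.66.

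Genes of the ATF4 axis gave the setting for the cytosolic members. ATF4 itself had 405.8 and 397.0 FPKM in shMLKL TBZ against 383.2 and 381.1 FPKM in shMLKL DMSO, which was not called (0.07, limma adjusted p = 0.118). In shGFP cells ATF4 had 364.3 and 363.6 FPKM with TBZ against 274.1 and 284.6 FPKM with DMSO, a rise of 0.38 (limma adjusted p = 4.65e-05). The effects differed by −0.31 (limma adjusted p = 0.00334). Of 35 tested genes of a 38-gene list of amino acid synthesis, transport and stress, 15 rose and 3 fell in shMLKL cells, and 18 rose and 5 fell in shGFP cells. Over all genes 20.0% rose and 17.6% fell in shMLKL cells, and 19.1% rose and 37.3% fell in shGFP cells. Under DMSO, 18 of the 35 were higher in shMLKL than in shGFP cells and 6 lower, beside 18.3% and 44.8% of all genes. ATF4 was higher by 0.45 there.

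ASNS, asparagine synthetase, rose in both lines, by 0.36 in shMLKL and 0.48 in shGFP cells. DDIT3, the stress factor CHOP, had −0.06 in shMLKL cells without a call and rose by 0.60 in shGFP cells. Its mean under DMSO was 147.2 FPKM in shMLKL and 53.2 FPKM in shGFP cells, a line difference of 1.45. With TBZ the means were 141.3 and 80.9 FPKM. DDIT3 overlaps MARS by 68 bases. TRIB3, a pseudokinase induced by ATF4, fell by −0.31 in shMLKL cells and had −0.05 in shGFP cells without a call. Among the largest rises on the list, ATF3 rose by 1.25 in shMLKL and 3.6 in shGFP cells, and PPP1R15A, the eIF2 phosphatase subunit GADD34, by 0.85 in shMLKL and 2.54 in shGFP cells. The third largest was ATF5 in shMLKL cells (0.68, with 0.83 in shGFP cells) and SESN2 in shGFP cells (1.27, with 0.55 in shMLKL cells). For comparison, the largest rise of a cytosolic synthetase was 0.31 (RARS) in shMLKL and 0.67 (WARS) in shGFP cells. Under DMSO, ATF3, PPP1R15A, ATF5 and SESN2 were higher in shMLKL than in shGFP cells, by 1.02, 1.49, 0.45 and 0.93.

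Of 14 tested eIF2 kinases and regulators, 4 rose in shMLKL cells, and 2 rose and 5 fell in shGFP cells. Over all genes 20.0% rose and 17.6% fell in shMLKL cells, and 19.1% rose and 37.3% fell in shGFP cells. EIF2AK3, the kinase PERK, rose by 0.64 in shMLKL and 1.09 in shGFP cells, and PPP1R15B, another eIF2 phosphatase subunit, by 0.67 in shMLKL and 1.29 in shGFP cells. Of 6 cytosolic elongation factors, 1 rose in shMLKL cells, and 1 rose and 1 fell in shGFP cells. EEF1A1, which carries charged tRNA to the ribosome, rose by 0.21 in shMLKL and 0.19 in shGFP cells.

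Other genes of mitochondrial translation were counted beside the mitochondrial synthetases. Of 77 mitochondrial ribosomal protein genes, 5 rose and 11 fell in shMLKL cells, and 0 rose and 42 fell in shGFP cells. Their medians were −0.07 and −0.24, beside −0.004 and −0.121 for all genes. Of all genes 20.0% rose and 17.6% fell in shMLKL cells, and 19.1% rose and 37.3% fell in shGFP cells. MRPS2 had −0.43 in shMLKL and −0.49 in shGFP cells, and MRPS34 had −0.34 and −0.57, all called. The falls of MRPS26 (−0.62) and MRPL12 (−0.58) in shGFP cells were larger. In shMLKL cells these 2 genes had −0.21 and −0.09 and were not called. Of 14 mitochondrial translation factors tested, 0 rose and 1 fell in shMLKL cells, and 0 rose and 6 fell in shGFP cells. MTIF3, an initiation factor, fell by −0.54 in shGFP cells and had −0.03 in shMLKL cells without a call. Under DMSO, 3 of the 77 ribosomal protein genes were higher in shMLKL cells and 43 lower, beside 18.3% and 44.8% of all genes.

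Interferon-induced genes were set beside WARS. Of 12 tested, 11 rose and 0 fell in shMLKL cells, and 8 rose and 2 fell in shGFP cells. The shares of all genes were 20.0% and 17.6% in shMLKL cells, and 19.1% and 37.3% in shGFP cells. IRF1, a transcription factor of the interferon response, had 61.5 and 64.6 FPKM in shMLKL TBZ against 13.8 and 12.8 FPKM in shMLKL DMSO, and 37.5 and 37.3 FPKM in shGFP TBZ against 6.51 and 6.58 FPKM in shGFP DMSO. Its rise was 2.16 in shMLKL and 2.35 in shGFP cells. The guanylate-binding protein GBP1 rose by 2.52 and 3.98, and the chemokine CXCL10 by 2.02 and 0.64. Under DMSO, 10 of the 12 were lower in shMLKL than in shGFP cells and 1, IRF1, was higher, as was WARS. Of all genes 44.8% were lower and 18.3% higher there.

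The earlier experiment had single libraries, so its differences have no replicate check and no test. They are on log2(FPKM + 1) of summed RefSeq transcripts, and a difference of at least 1.5-fold was counted. In shMLKL cells after 12 h of TBZ, 0 cytosolic members were higher and 2 lower (FARSB and LARS), against 13.4% and 19.3% of 9589 genes. Of 14 mitochondrial members with a value, 1 was higher (MARS2) and 4 lower (EARS2, IARS2, NARS2 and SARS2). In parental cells after 4 h, 2 cytosolic members were higher (EPRS and WARS) and 3 lower (AARS, DARS and YARS), against 12.6% and 25.8% of 9475 genes. Of 15 mitochondrial members, 0 were higher and 4 lower (EARS2, MARS2, PARS2 and SARS2). The medians at 12 h were −0.18 for cytosolic and −0.43 for mitochondrial members, beside −0.128 for all genes. At 4 h in parental cells they were −0.13 and −0.44, beside −0.217. With library medians set equal, parental cells had 3 cytosolic members higher (RARS added) and 2 lower, with a cytosolic median of 0.08 and a mitochondrial one of −0.22. With a pseudocount of 0.1 they had 3 cytosolic members higher and 4 lower, and 6 mitochondrial members lower. At 12 h, equal medians gave 3 mitochondrial members lower, without IARS2.

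MARS2 had 3.81 FPKM in shMLKL cells at 12 h against 1.13 FPKM in their DMSO library, and 1.44 FPKM in parental cells at 4 h against 4.51 FPKM in theirs. EARS2 had 4.23 FPKM at 12 h against 12.3 FPKM in DMSO, and 4.11 FPKM in parental cells at 4 h against 9.22 FPKM. PARS2 had 0.292 FPKM in parental cells at 4 h against 3.36 FPKM. MARS2 was thus higher with TBZ in shMLKL cells in both experiments, at 5 h and at 12 h. It was lower with TBZ in shGFP cells at 5 h and in parental cells at 4 h. The earlier values are single libraries of a low gene. AARS had 81.2 FPKM in parental TBZ against 124.7 FPKM in parental DMSO. A value of 0 can be a failed estimate, so no fold is given for HARS2, listed at 0 in parental TBZ, for YARS2, listed at 0 in shMLKL DMSO, or for VARS2, listed at 0 in shMLKL cells at 12 h.

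WARS had 288.4 FPKM in parental TBZ against 100.8 FPKM in parental DMSO, a log2 difference of 1.51, the highest among the members. In shMLKL cells it had 113.1 FPKM at 12 h against 110.2 FPKM in DMSO. Its RefSeq transcripts were split. NM_173701 had 113.1 FPKM in shMLKL TBZ against 67.0 FPKM in shMLKL DMSO, and 146.6 FPKM in parental TBZ against 64.6 FPKM in parental DMSO. NM_004184 was listed at 0 in shMLKL TBZ against 43.2 FPKM in shMLKL DMSO, and had 99.7 FPKM in parental TBZ against 36.2 FPKM in parental DMSO. NM_213645 was given 42.1 FPKM in parental TBZ and was listed at 0 in the other 3 libraries. Such splits rest on how the authors' assembler divided shared reads, and a 0 may be a failed estimate.

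**Figure D5:**
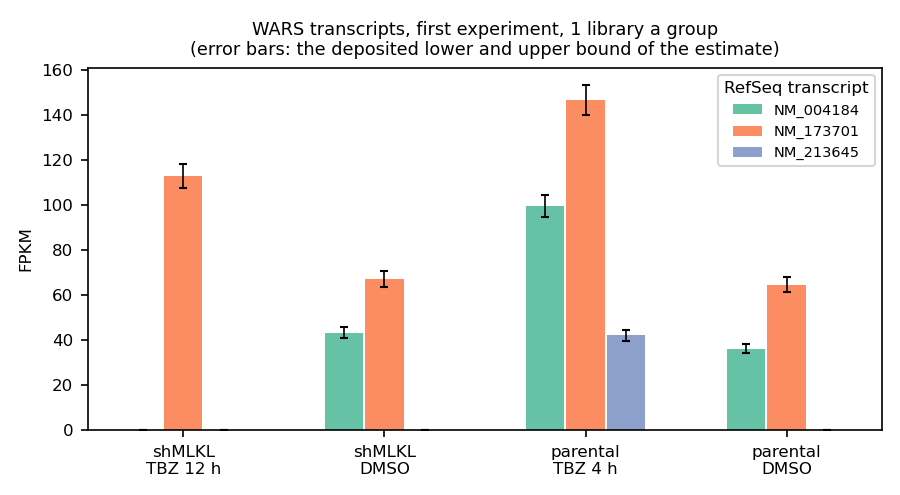
FPKM of the RefSeq transcripts of WARS in the 4 single libraries of the earlier experiment, TBZ beside DMSO for each line, with error bars for the authors' deposited bounds, whose level is not stated. NM_173701 is the highest transcript in each library, with 146.6 FPKM in parental TBZ and 64.6 FPKM in parental DMSO.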

How the data were processed

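Poly-A RNA was sequenced from stranded libraries as paired-end reads, per the labels' protocols. The submitters' processing notes name STAR 2.4.0f1, TopHat2 2.0.13, GATK and Cufflinks 2.2.1 with hg19, without roles. The authors deposited FPKM: 1 gene table for 8 libraries, whose header names no unit (FPKM was taken from the values and from Cufflinks), and 1 transcript list per library for the 4 of the first experiment. Read counts were not used here, so no count test was run.

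Each symbol was read from its highest-mean line (29437 lines, 19128 symbols), and genes with a group mean of at least 1 FPKM were tested (10364). limma 3.58.1 in R 4.3.3 was fitted to log2(FPKM + 1) with 4 group means and a variance trend, two-sided, with Benjamini-Hochberg adjustment within each of 5 contrasts. Fold changes on this scale understate low genes. The procedure was tested on simulated data in which a small part of the genes changed in shGFP TBZ, as many up as down. That simulation held no shift between libraries, so it does not bear on how the calls depend on the scaling. In the first experiment RefSeq transcripts were summed per gene. 17 other settings were tried. Counts without PARS2 were added after the data were seen.

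Members and gene lists were chosen with earlier results of these data known. Values in every library are given for up to 6 cytosolic and 4 mitochondrial called members with the largest change after TBZ in each line, up to 8 called for a difference of effects, and 4 in each line contrast. Up to 3 called genes of each other list are named for each TBZ contrast, with ATF4, DDIT3, ASNS, TRIB3 and MLKL.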

Additional observations from a re-analysis of the deposited data

Results flagged for a closer look

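For 7 of the 35 synthetases tested, the effect of TBZ differed between the lines (shMLKL effect minus shGFP effect, limma adjusted p under 0.05). By this test of the difference itself 5 members were higher and 2 lower, beside 14.6% and 7.66% of all genes. The difference on the log2 scale was 0.73 for MARS2, 0.55 for PARS2, 0.50 for EARS2, 0.30 for IARS2 and 0.19 for FARSB, and −0.21 for GARS and −0.38 for WARS. PARS2 passed the level filter through shGFP DMSO alone. MARS2 was the 1 member of the 7 whose call was kept under each setting in which it was tested.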

How the results depend on the processing

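Of the synthetase calls, 5 of 10 after TBZ in shMLKL cells, 11 of 16 in shGFP cells, 1 of 7 for the difference of effects, 12 of 26 between lines under DMSO and 13 of 16 under TBZ were kept under each alternative in which the member was tested. The cause of the changes was not tested. With library medians set equal, the cytosolic counts became 8 higher and 1 lower (shGFP TBZ), 4 lower (shMLKL TBZ), 0 higher (difference of effects), and 11 higher and 3 lower (lines under DMSO). The mitochondrial counts became 1 higher (shMLKL TBZ), 1 higher (difference) and 5 lower (DMSO). The shares of all genes for these were 17.5% higher, 6.7% higher and 26.6% lower. Between lines under DMSO, FARSB (0.02), GARS (0.08) and RARS (0.00) changed sign. After quantile normalization, shGFP TBZ had 3 cytosolic members higher and 6 lower, shMLKL TBZ 1 mitochondrial member higher and 1 lower, the difference 0 cytosolic members higher and 1 lower, and DMSO 4 mitochondrial members lower. VARS changed sign between lines under DMSO (0.03). The mitochondrial minus cytosolic median became −0.11 (shGFP TBZ), 0.08 (difference) and −0.15 (DMSO). A pseudocount of 0.1 gave 1 mitochondrial member lower in shMLKL TBZ and a median gap of 0.29 for the difference.

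Without a filter on low values, shMLKL TBZ had 1 mitochondrial member higher and 1 lower, and the difference 0 cytosolic members higher, 1 lower and 1 mitochondrial higher. With a group mean of at least 5 FPKM these were 1 and 1 in shMLKL TBZ, 2 cytosolic and 2 mitochondrial higher for the difference, and 7 mitochondrial lower under DMSO. Without the variance trend, shMLKL TBZ had 1 mitochondrial member higher and the difference 0 cytosolic members higher and 1 lower. With the replicate block, shMLKL TBZ had 1 mitochondrial member higher and 1 lower and the difference 0 cytosolic members higher. Residuals of same-numbered libraries correlated at −0.066 to 0.0282, so they shared no pattern across genes. No label says whether the replicate numbers pair the samples.

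Leaving out 1 library at a time gave 2 to 4 cytosolic members lower in shGFP TBZ (2 without shGFP DMSO replicate 2). In shMLKL TBZ it gave 0 to 2 mitochondrial members higher (0 without replicate 2 of either shMLKL group), 1 to 2 lower, and a median gap of −0.16 to −0.01. The difference had 0 to 1 cytosolic members higher, 0 to 2 lower, 1 to 3 mitochondrial higher (1 without any 1 of the 4 DMSO libraries or shMLKL TBZ replicate 2, and 2 without shMLKL TBZ replicate 1 or shGFP TBZ replicate 2), and a gap of 0.11 to 0.25. Between lines, DMSO had 7 to 11 mitochondrial (7 without shGFP DMSO replicate 1) and 5 to 7 cytosolic members lower (5 without shGFP DMSO replicate 2 or either shMLKL DMSO library), and TBZ a gap of −0.18 to −0.05. No counts or absolute depth are known, and precision is limited by 2 libraries a group.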
